A study of Mus musculus with 25 samples.

Results

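The genes described here are 10 mouse genes that write, maintain, remove or respond to DNA methylation, followed in ES cells with increasing β-catenin activity. They were found by matching the Ensembl IDs of the count table to gene symbols, which gave 10 of 10 genes among the 48440 genes of the table. *Dnmt1* and *Uhrf1* maintain methylation, *Dnmt3a*, *Dnmt3b* and *Dnmt3l* serve its de novo deposition, *Tet1* and *Tet2* oxidize it, *Prdm14* is a repressor, and *Dazl* and *Mael* are germline genes that stand as readouts.

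The libraries came from E14 cells, a line of mouse ES cells kept without feeder cells, in medium with serum and leukemia inhibitory factor. Unedited E14 cells received 0, 2.5, 5, 7.5 or 10 µM CHIR99021 for 48 h, with 2 libraries per dose. CHIR99021 inhibits GSK3β, the kinase that marks β-catenin for destruction. A further 15 libraries came from 15 clones that received no CHIR99021 (0 µM, 48 h), each with a heterozygous missense mutation of *Ctnnb1*, the β-catenin gene, at codon 37, 41 or 45, where the protein is phosphorylated for destruction. The clones carried 11 mutations, and 4 of these (S37F, S45F, T41A and T41I) had 2 clones each. In all 15 clones part of 1 *Ctnnb1* allele had first been replaced by a selection cassette, which was then exchanged for the mutant sequence, and colonies were picked and expanded. The unedited cells had no part in this editing and cloning, so that editing cannot be told apart from mutation where clones are set against unedited cells.

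The clones fell into the low, medium and high classes of the study's mutational effect score (MES), a measure of reporter activation by β-catenin. The high class held 9 clones, of S37A, S37C, S37F, S37Y, T41A and T41I. The medium class held 3 clones, of S45F and S45P, and the low class held 3 clones, of S45C, T41N and T41S. The borders between classes were drawn by clustering these same libraries in the study, so p-values between classes are not independent evidence of their direction. Nothing states that libraries of 1 dose came from separate cultures, so p-values measure the spread between these libraries, which may be technical.

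As background, DNA methylation in mammals sits mainly on cytosines of CpG dinucleotides. UHRF1 brings DNMT1 to newly replicated DNA, where it copies the pattern to the new strand. DNMT3A and DNMT3B methylate unmethylated sites, and DNMT3L has no catalytic activity of its own but stimulates both. TET enzymes oxidize 5-methylcytosine, which leads to its loss. In ES cells PRDM14 represses de novo methyltransferase genes, and many germline genes are kept silent by methylation of CpG-rich promoters. *Dazl* encodes an RNA-binding protein of germ cells and *Mael* a protein of the piRNA pathway that silences transposons.

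The promoters of *Dazl* and *Mael*, the methylation readouts, and of *Tet2* and *Dnmt3b*, the pair with the smallest adjusted p between the high and low classes described below, are shown to make their CpG content visible. Each is the 300 bases from 250 before to 50 after the start of transcription, 5′ to 3′ on the strand of the gene, from RefSeq (GRCm38.p6), with each CpG in capitals. *Dazl* (minus strand, chr17:50293571-50293870) has 28 CpG, and *Mael* (minus strand, chr1:166238695-166238994) has 24. *Tet2* (minus strand, chr3:133544341-133544640) has 57, and *Dnmt3b* (plus strand, chr2:153649199-153649498) has 30.
Dazl: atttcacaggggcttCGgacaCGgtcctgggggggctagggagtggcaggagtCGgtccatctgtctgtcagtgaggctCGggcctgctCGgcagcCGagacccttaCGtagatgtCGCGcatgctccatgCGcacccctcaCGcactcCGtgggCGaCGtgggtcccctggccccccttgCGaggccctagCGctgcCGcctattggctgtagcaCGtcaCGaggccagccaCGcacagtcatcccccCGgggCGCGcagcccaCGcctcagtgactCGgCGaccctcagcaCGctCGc
Mael: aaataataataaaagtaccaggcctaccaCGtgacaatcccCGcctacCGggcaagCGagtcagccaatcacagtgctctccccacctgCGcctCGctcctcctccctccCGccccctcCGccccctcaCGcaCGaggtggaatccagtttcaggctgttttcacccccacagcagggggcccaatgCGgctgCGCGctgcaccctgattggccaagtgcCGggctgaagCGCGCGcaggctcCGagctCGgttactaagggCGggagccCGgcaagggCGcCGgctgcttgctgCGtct
Tet2: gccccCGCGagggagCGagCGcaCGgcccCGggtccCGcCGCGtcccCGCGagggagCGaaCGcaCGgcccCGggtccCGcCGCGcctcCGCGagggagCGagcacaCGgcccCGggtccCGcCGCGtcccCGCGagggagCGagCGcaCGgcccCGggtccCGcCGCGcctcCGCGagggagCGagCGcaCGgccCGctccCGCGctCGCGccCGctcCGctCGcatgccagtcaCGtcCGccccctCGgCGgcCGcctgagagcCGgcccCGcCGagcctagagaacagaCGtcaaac
Dnmt3b: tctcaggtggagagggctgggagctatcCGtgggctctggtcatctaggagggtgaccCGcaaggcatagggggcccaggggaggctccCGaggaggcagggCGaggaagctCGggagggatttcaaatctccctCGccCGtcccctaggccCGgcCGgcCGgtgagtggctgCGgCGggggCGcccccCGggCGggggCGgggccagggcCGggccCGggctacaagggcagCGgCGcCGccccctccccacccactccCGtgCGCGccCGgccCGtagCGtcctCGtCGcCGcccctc

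The median of 32851 mouse promoters of this length was 7 CpG. As many CpG as in the window of *Dazl* were found in 14.2% of them, as in that of *Mael* in 19.98%, as in that of *Tet2* in 0.152% and as in that of *Dnmt3b* in 11.7%. Of the 10 genes, 9 had 1 or more promoters in the RefSeq table, and *Prdm14* was not matched. The core letters of the TCF/LEF motif, CTTTGAT, on either strand, were in none of the windows of the 9 genes and in 3.73% of all promoters. The E2F core TTCCCGC was in 1 of 2 *Uhrf1* windows and in 4.60% of all promoters. The E-box CACGTG was in the *Mael* window, 1 of 3 *Dnmt3a* windows and 1 of 3 *Dnmt3l* windows, and in 7.15% of all promoters. These matches describe letters in a window and no binding was measured.

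Libraries held 306157 to 2083398 UMI counts in unedited cells and 495616 to 2025273 in clones, and a count of 0 allows up to 1.44 to 9.80 CPM (counts scaled to the total of the library, from 3 counts at 95% confidence). Such limits cover counting error only. The low class had the lowest median depth (662881 counts, against 1345179 in the high class). The mitochondrial share of counts was 0.485% to 1.46% in unedited cells and 1.53% to 2.52% in clones, with no overlap. Of the 10 unedited libraries, 4 lay at 0.485% to 0.562% and 6 at 0.986% to 1.46%. *Ctnnb1*, whose 3′ counts do not read the mutated codon, lay at 433 to 528 CPM in clones and at 440 and 445 CPM in untreated cells. All 10 genes of a list of ES cell identity genes passed the filter in each comparison, and their summed level was 3983 and 4007 CPM in untreated cells, 3359 to 3940 in treated cells, 2121 to 3567 in the low class and 5210 to 6240 CPM in the high class. Fibroblast genes summed to 52.8 to 167 CPM in the low class and 4.82 to 16.3 CPM in the high class, neural genes to 125 to 216 and 20.1 to 88.4 CPM, and primed-state genes to 169 to 225 and 30.0 to 52.0 CPM. Primitive endoderm genes reached 223 CPM in S37Y, against 6.03 to 22.0 CPM in the low class. Mesendoderm genes summed to 48.9 to 163 CPM in treated cells, against 16.9 and 19.14 CPM in untreated ones. A mean of 5 CPM over all libraries was reached by 2 of 6 fibroblast, 3 of 6 neural and 3 of 5 primed-state genes. For primitive endoderm it was 3 of 6 and for mesendoderm 2 of 6, so these sums rest on few genes. The part of the listed genes in the differences below was not tested.

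In unedited cells, CHIR99021 went with lower levels of the de novo genes and of both TET genes, and with no called change of the maintenance pair. Over the dose series *Dnmt3a*, *Dnmt3b*, *Dnmt3l*, *Tet1*, *Tet2* and *Mael* fell, which is 6 of the 9 genes that passed the filter (edgeR quasi-likelihood test, adjusted p under 0.05), and none rose. Of all 10033 genes tested, 12.5% were called, 5.89% higher and 6.63% lower. *Prdm14* did not pass the filter on low counts. The median of the 9 log2 changes over 10 µM was −0.66, beside 0.0084 over all genes.

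*Dnmt3l*, the cofactor of de novo methylation, had the largest log2 change of the 9 genes tested. Its levels were 107 and 112 CPM in untreated cells, 44.5 and 64.8 at 2.5 µM, 54.3 and 45.1 at 5 µM, 48.6 and 38.6 at 7.5 µM, and 68.6 and 32.4 at 10 µM. All 8 treated libraries were below both untreated ones, already at the lowest dose, and the 2 libraries at 10 µM were the farthest apart. Of all 10033 genes tested, 17.8% had no overlap between treated and untreated libraries. Among the 9 genes tested here, 4 had none, namely *Dnmt3l* and, as given below, *Dnmt3b*, *Dnmt3a* and *Tet1*. The trend was −1.52 ± 0.23 (log2 over 10 µM, SE, adjusted p = 3.34e-05, edgeR). Exons of *Dnmt3l* overlap *Aire* on the other strand. *Aire* had 436 counts over all libraries against 6198 of *Dnmt3l*, and the strandedness of the counting is not given in the sources used here.

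*Dnmt3b*, a de novo methyltransferase, was at 151 and 123 CPM in untreated cells, 66.1 and 89.2 at 2.5 µM, 85.5 and 84.0 at 5 µM, 77.6 and 78.9 at 7.5 µM, and 88.2 and 79.1 at 10 µM. The treated libraries lay close together and below both untreated ones, with no order by dose among them. The 4 libraries at 7.5 and 10 µM were 1.73-fold lower than untreated cells (log2 difference −0.79 ± 0.14, SE, adjusted p = 3.65e-05, edgeR). *Dnmt3a*, the other de novo methyltransferase, went from 54.4 and 57.4 CPM to 26.1 to 44.9 CPM in the 8 treated libraries, without overlap. Its trend was −0.66 ± 0.22 (adjusted p = 0.0488), and that call was lost in 7 of 10 fits that left out 1 library.

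Both TET dioxygenase genes were lower with the inhibitor. *Tet1* was at 229 and 179 CPM in untreated cells and at 107, 123 and 146 CPM (lowest, median, highest) in the 8 treated libraries, all below both untreated ones. Its difference at 7.5 and 10 µM was −0.78 ± 0.13 (log2, SE, adjusted p = 2.06e-05, edgeR), or 1.71-fold lower. *Tet2* was at 122 and 84.0 CPM in untreated cells and at 62.1, 71.6 and 106 CPM in treated libraries, of which 7 of 8 lay below both untreated ones. Its difference at the top doses was −0.55 ± 0.15 (adjusted p = 0.00982, edgeR), and −0.24 without untreated replicate 1. That call was lost in 2 of 6 fits that left out 1 library, and in DESeq2 (adjusted p = 0.192). The untreated libraries differed more in *Tet2* than the 4 at the top doses, which lay at 62.1 to 77.6 CPM.

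The maintenance genes did not pass the test over the dose series. *Dnmt1* was at 203 and 168 CPM in untreated cells and 130 to 190 CPM in treated ones, with a trend of −0.28 ± 0.15 (adjusted p = 0.229). *Uhrf1* was at 283 and 203 CPM and at 191 to 303 CPM, with a trend of −0.26 ± 0.15 (adjusted p = 0.263). In the 6 libraries with the higher mitochondrial share alone, both were called lower, with trends of −0.50 (adjusted p = 0.0249) for *Dnmt1* and −0.49 (0.0269) for *Uhrf1*. That makes 7 of the 10 genes called in those 6 libraries, beside 9.86% of all genes. *Dnmt3b*, *Dnmt3l*, *Tet1*, *Tet2* and *Mael* stayed called, with trends of −0.93, −1.67, −1.01, −0.84 and −1.59, and *Dnmt3a* was not called (−0.51, adjusted p = 0.270). Of the untreated libraries, these 6 hold only replicate 1, which had the higher level of *Dnmt1* (203 CPM) and of *Uhrf1* (283 CPM). The trends in the 6 libraries thus rest on that untreated library. No fit was run on the other 4 libraries alone. In these, *Dnmt1* was at 168 CPM untreated and at 141, 130 and 186 CPM at 2.5, 5 and 10 µM. *Uhrf1* was at 203 CPM untreated and at 207, 191 and 203 CPM at the same doses.

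Of the germline readouts, *Mael* fell and *Dazl* was not called. *Mael* was at 20.7 and 10.6 CPM in untreated cells and at 6.02 to 15.2 CPM in treated ones, with 4 of 8 below both untreated libraries and a trend of −1.24 ± 0.38 (adjusted p = 0.0252). These are 3 to 38 counts per library, and the call was lost in 3 of 10 fits that left out 1 library. *Dazl* was at 8.70 and 10.6 CPM in untreated cells and 6.53 to 18.1 CPM in treated ones (trend 0.44 ± 0.41, adjusted p = 0.553). *Prdm14* lay at 1.65 to 10.5 CPM in treated cells, with 1 to 14 counts, and at 5.44 and 5.32 CPM in untreated cells. Levels of *Dazl* and *Prdm14* in treated libraries lay on both sides of the untreated ones.

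**Figure D1:**
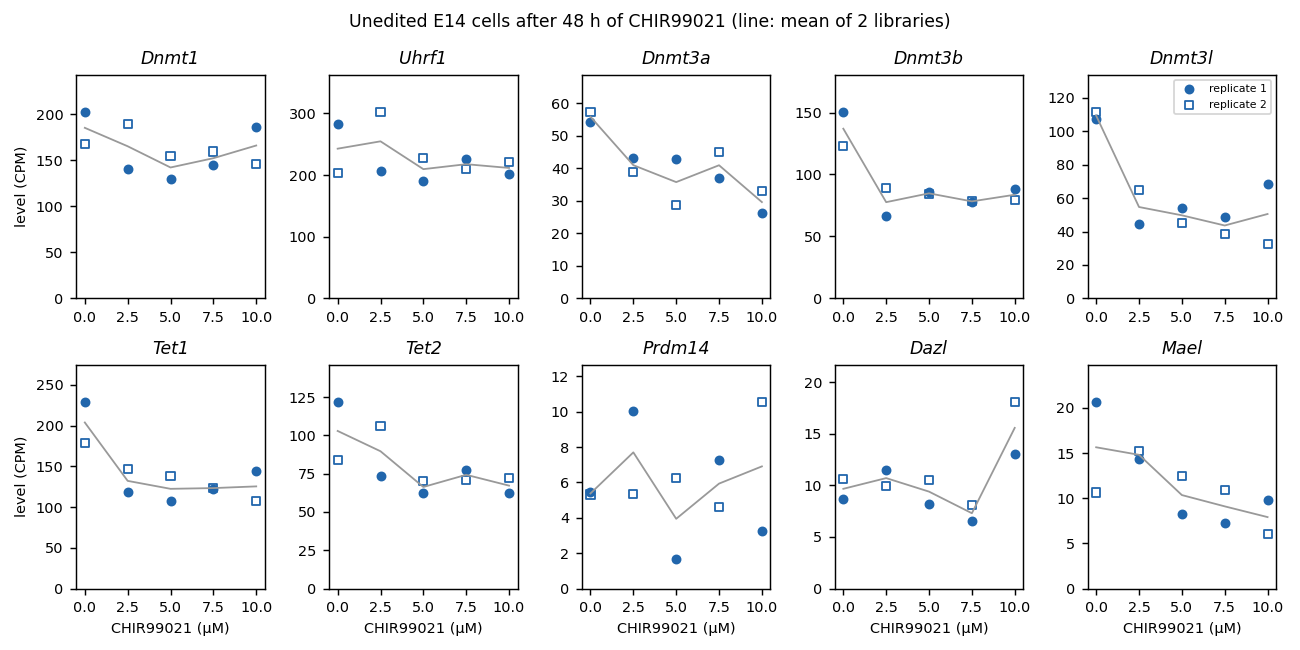
Levels of the 10 genes (CPM, vertical axes) in unedited E14 cells against the CHIR99021 dose (µM, horizontal axes), with filled points for replicate 1, open points for replicate 2 and a line through the means. *Dnmt3l* drops from 107 and 112 CPM to 32.4 to 68.6 CPM at every dose above 0, while *Dnmt1* and *Uhrf1* overlap with untreated cells.

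The decrease was present at the lowest dose. At 2.5 µM *Dnmt3b* (log2 difference −0.77, adjusted p = 0.00395), *Dnmt3l* (−0.91) and *Tet1* (−0.60) were called lower than in untreated cells, where 2.32% of all genes were called. At 5 µM *Dnmt3a*, *Dnmt3b*, *Dnmt3l*, *Tet1* and *Tet2* were called, beside 8.55% of all genes. At 7.5 µM *Dnmt3b*, *Dnmt3l*, *Tet1* and *Tet2* were called, beside 12.8%, and at 10 µM the 5 genes called at 5 µM were called again, beside 10.1%. At the 4 libraries of the 2 top doses together, the 6 genes of the trend were called lower, beside 15.8% of all genes (7.35% higher and 8.45% lower). *Dnmt1* (log2 difference −0.26), *Uhrf1* (−0.18), *Prdm14* (0.43) and *Dazl* (0.26) were not called there. The top-dose call of *Dnmt3a* was lost in 4, that of *Mael* in 3 and that of *Tet2* in 2 of 6 fits that left out 1 library. All these comparisons share the 2 untreated libraries. Without untreated replicate 1, only *Dnmt3l* remained called in the trend, beside 527 genes in all, and *Dnmt3b*, *Dnmt3l* and *Tet1* at the top doses.

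Among the clones, the 10 genes did not move as 1 group. Over the 11 mutations, *Tet2* (adjusted p = 8.75e-07, edgeR F-test), *Dnmt3b* (6.17e-05), *Dazl* (0.00191), *Tet1* (0.00641), *Dnmt3a* (0.0211) and *Uhrf1* (0.0306) differed, and *Dnmt1* (0.110), *Dnmt3l* (0.486), *Prdm14* (0.116) and *Mael* (0.355) were not called. Of all genes tested, 17.1% were called. The call of *Uhrf1* was lost in 5 and that of *Dnmt3a* in 3 of 15 fits that left out 1 clone. Between the high and the low class, *Tet2*, *Uhrf1*, *Dazl* and *Mael* were higher in the high class, and *Dnmt3b* and *Dnmt3a* were lower. That is 6 of 10 genes, beside 29.8% of all genes (13.1% higher and 16.6% lower). Between the high and the medium class 3 of 10 were called, *Tet2* and *Dazl* higher and *Dnmt3b* lower, beside 4.51% of all genes (2.13% higher and 2.37% lower). The call of *Dazl* there (adjusted p = 0.0385, edgeR) was lost in 7 of 12 fits that left out 1 clone. Between the medium and the low class *Tet2*, *Dnmt1* and *Uhrf1* were called, all higher, beside 11% of all genes (3.66% higher and 7.29% lower). Not called between high and medium were *Tet1* (log2 difference −0.56), *Dnmt3a* (−0.51), *Dnmt3l* (−0.26), *Dnmt1* (−0.22), *Uhrf1* (−0.06), *Prdm14* (−0.74) and *Mael* (0.72). Not called between medium and low were *Dnmt3b* (−0.62), *Dnmt3a* (−0.49), *Dnmt3l* (0.24), *Tet1* (0.32), *Prdm14* (1.84), *Dazl* (−0.58) and *Mael* (0.17).

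*Tet2* had the largest difference that passed the test. It was at 36.7 CPM in T41S, 36.2 in S45C and 66.6 in T41N, the clones of the low class. It was at 143 and 128 CPM in the S45F clones and 136 in S45P, the clones of the medium class. The 9 high clones lay at 145, 230 and 314 CPM (lowest, median, highest), from T41I clone A6 to S37C. The 3 classes did not overlap, although T41I clone A6 (145 CPM) and S45F clone C1 (143 CPM) were nearly level. Of all genes tested, 20.4% had no overlap between high and low, and 6.18% had none between high and medium. Among the 10 genes, 4 had none between high and low (*Tet2*, *Dnmt3b*, *Dnmt3a* and *Uhrf1*). Between high and medium 2 had none (*Tet2* and *Tet1*). The high class was 5.20-fold above the low class (95% confidence interval 3.67 to 7.36, adjusted p = 1.72e-07, edgeR). The steps from low to medium (log2 difference 1.60 ± 0.28, SE, adjusted p = 0.000666) and from medium to high (0.78 ± 0.20, adjusted p = 0.0272) were called as well. The latter call was lost in 4 of 12 fits that left out 1 clone.

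*Dnmt3b* ran the other way. It was at 366 CPM in T41S, 499 in S45C and 398 in T41N, at 196 and 275 in the S45F clones and 371 in S45P, and at 98.9, 136 and 217 CPM in the 9 high clones. All high clones were below all low ones, and S45P was within the range of the low class. The high class was 2.88-fold lower than the low class (log2 difference −1.53 ± 0.19, SE, adjusted p = 1.85e-06) and also lower than the medium class (−0.91 ± 0.19, adjusted p = 0.0102). The latter call was lost without S45F clone D9 or without S45P. *Dnmt3a* was at 58.7, 66.4 and 54.5 CPM in T41S, S45C and T41N, at 34.6 to 50.2 CPM in the medium class and at 20.8, 29.7 and 46.0 CPM in the high class. Its high clones were below all low ones, and the high class was 1.99-fold lower than the low class (adjusted p = 0.00140).

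*Dnmt3l*, the third de novo gene, did not follow *Dnmt3a* and *Dnmt3b*. It was at 288 ± 121 CPM in the low class (SD, n = 3), 336 ± 131 in the medium class (n = 3) and 274 ± 69.6 in the high class (n = 9). The difference between high and low was −0.03 on the log2 scale, with a 95% confidence interval from −0.55 to 0.49. Clones of the same mutation were as far apart as clones of different ones. The S45F clones had 224 and 480 CPM, and the SD of log2 CPM was 0.58 within mutations (4 pairs) and 0.45 over all clones. For *Tet2* these SDs were 0.16 and 0.98, for *Dnmt3b* 0.31 and 0.74 and for *Dnmt1* 0.07 and 0.23.

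*Tet1*, the second TET gene, was at 118, 308 and 309 CPM in T41S, S45C and T41N, at 246 to 358 CPM in the medium class and at 149, 198 and 226 CPM in the high class. T41S stood apart from the other 2 low clones. The difference between high and low was −0.24 (log2, 95% confidence interval −0.67 to 0.19, adjusted p = 0.413), and that between high and medium was −0.56 ± 0.19 (adjusted p = 0.0977), although all 9 high clones were below all 3 medium ones. *Tet2* minus *Tet1* was not tested as a difference.

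Of the maintenance genes, *Uhrf1* was called between the high and the low class and *Dnmt1* was not. *Uhrf1* was at 146, 177 and 159 CPM in T41S, S45C and T41N and at 183, 226 and 321 CPM in the high class, without overlap. The high class was 1.53-fold higher (adjusted p = 0.0113), a call lost when T41S was left out. *Dnmt1* was at 120, 173 and 145 CPM in the same low clones and at 148, 174 and 210 CPM in the high class (log2 difference 0.28 ± 0.13, adjusted p = 0.102). Both genes were higher in the medium than in the low class, *Dnmt1* by 0.50 ± 0.15 (log2, adjusted p = 0.0350) and *Uhrf1* by 0.67 ± 0.21 (adjusted p = 0.0397). Each of these 2 calls was lost in 4 of 6 fits that left out 1 clone of either class.

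The germline readouts varied widely among the high clones. *Dazl* was at 10.2, 9.05 and 22.2 CPM in T41S, S45C and T41N, at 2.66 to 11.3 CPM in the medium class and at 6.98, 35.7 and 79.5 CPM in the high class. The highest were T41A clone E6 (79.5), S37C (54.4) and S37Y (48.4), while T41I clone A6 (6.98) and S37F clone G1 (11.3) lay among the low and medium clones. *Mael* was at 15.3, 13.6 and 20.2 CPM in the low clones and at 10.9, 29.0 and 42.0 CPM in the high class. The differences between high and low were 1.54 ± 0.57 (log2, SE, adjusted p = 0.0459) for *Dazl* and 0.89 ± 0.34 (adjusted p = 0.0495) for *Mael*. The first was lost in 7 and the second in 10 of 12 fits that left out 1 clone.

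*Prdm14* was low in every clone, at 0 to 11.98 CPM. T41N had 0 counts, which allows up to 6.05 CPM, and S45P had the highest level. The difference between high and low was 1.102 ± 0.574 (log2, SE, adjusted p = 0.158), with 207 counts over all 25 libraries. The low *Prdm14* counts limit what can be detected.

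**Figure D2:**
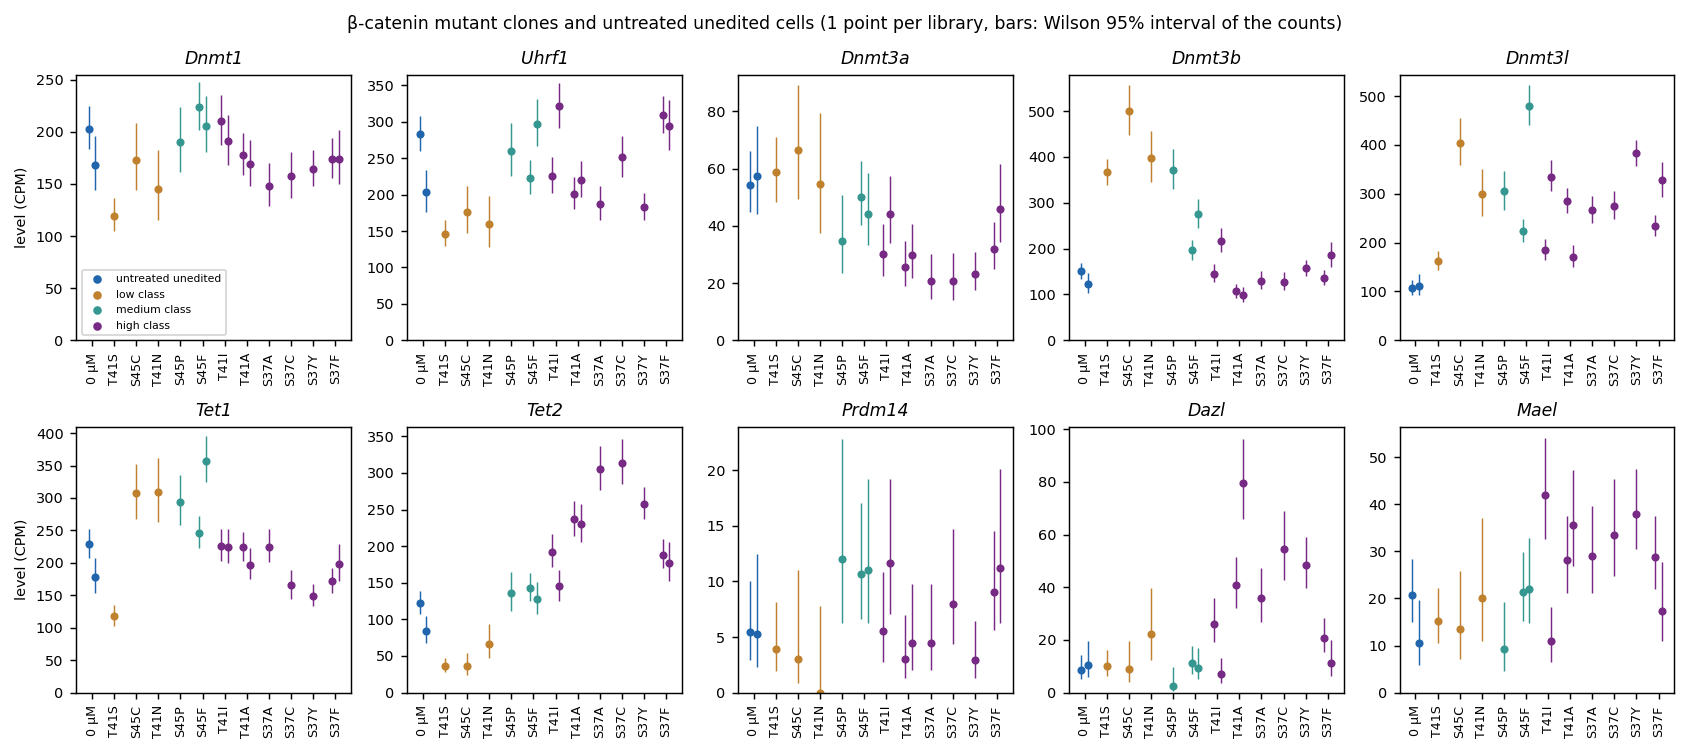
Levels of the 10 genes (CPM, vertical axes) in the 2 untreated libraries and the 15 clones, in order of class, with Wilson 95% intervals that cover counting error only and colours for the class. *Tet2* climbs from 36.2 to 66.6 CPM in the low class to 145 to 314 CPM in the high class, *Dnmt3b* runs the other way, and *Dnmt3l* shows no order by class but lies above the untreated cells in all 15 clones.

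Codon 41 holds both high clones (T41A and T41I) and low ones (T41N and T41S), so the comparison can be made within it. There 5 of the 10 genes were called, beside 22.7% of all genes. Within codon 41, *Tet2* (log2 difference 2.12, adjusted p = 1.12e-05), *Uhrf1* (0.68, 0.0375) and *Dnmt1* (0.53, 0.0130) were higher in the high clones, and *Dnmt3b* (−1.41, 0.000268) and *Dnmt3a* (−0.82, 0.0409) were lower. *Dazl* (1.49, 0.133) and *Mael* (0.81, 0.182) were not called. Within codon 45, with S45F and S45P against the single S45C clone, 0 of the 10 genes were called by edgeR, beside 9 genes in all, and *Dnmt3b* and *Tet2* had an unadjusted p under 0.05. *Tet2* differed by 1.92 there (adjusted p = 0.0993).

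Set against untreated cells, the high clones had higher *Dnmt3l*, *Tet2* and *Dazl* and lower *Dnmt3a*, which is 4 of 10 genes called, beside 34.0% of all genes (16.1% higher and 17.9% lower). *Dnmt3l* differed by 1.33 ± 0.30 (log2, SE, adjusted p = 0.000951), *Tet2* by 1.12 ± 0.22 (0.000241), *Dazl* by 1.94 ± 0.57 (0.00874) and *Dnmt3a* by −0.89 ± 0.22 (0.00229). The low clones had higher *Dnmt3b* (1.57 ± 0.25, adjusted p = 2.37e-05) and *Dnmt3l* (1.33 ± 0.33, 0.00294) and lower *Tet2* (−1.29 ± 0.28, 0.000829) and *Uhrf1* (−0.65 ± 0.22, 0.0210), beside 32.6% of all genes (17.1% higher and 15.4% lower). Not called were *Dnmt1* (−0.10), *Uhrf1* (−0.01), *Dnmt3b* (0.07), *Tet1* (−0.05), *Prdm14* (0.26) and *Mael* (0.84) in the high clones. In the low clones these were *Dnmt1* (−0.41), *Dnmt3a* (0.08), *Tet1* (0.16), *Prdm14* (−0.86), *Dazl* (0.37) and *Mael* (−0.09). *Dnmt3l* was thus above the untreated libraries in all 15 clones, at 162 to 480 CPM against 107 and 112 CPM. Of these, the calls of *Dazl* in the high clones and of *Tet2* and *Uhrf1* in the low clones were lost without untreated replicate 1, and that of *Uhrf1* also without T41S. Both comparisons share the 2 untreated libraries, and the mitochondrial share differed between clones and unedited cells as given above. Its part was not tested.

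Between the high clones and the cells at 7.5 and 10 µM CHIR99021, the study's 2 ways of raising β-catenin activity, 6 of 10 genes differed, beside 47.0% of all genes (23.4% higher and 23.7% lower). All 6 were higher in the clones. *Dnmt3l* was at 171 to 383 CPM in the 9 high clones against 32.4 to 68.6 CPM in the 4 treated libraries, a 6.32-fold difference (adjusted p = 4.13e-09). *Mael* (log2 difference 1.87 ± 0.32), *Dazl* (1.68 ± 0.43), *Tet2* (1.65 ± 0.18), *Dnmt3b* (0.83 ± 0.18) and *Tet1* (0.69 ± 0.18) followed. In *Dnmt3b*, *Dnmt3l*, *Tet1* and *Tet2* the 9 clones did not overlap with the 4 treated libraries, beside 26.1% of all genes without overlap. *Dnmt3a* was not called (−0.28 ± 0.20, adjusted p = 0.250), nor were *Dnmt1* (0.13 ± 0.11), *Uhrf1* (0.16 ± 0.14) and *Prdm14* (−0.15 ± 0.39).

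**Figure D3:**
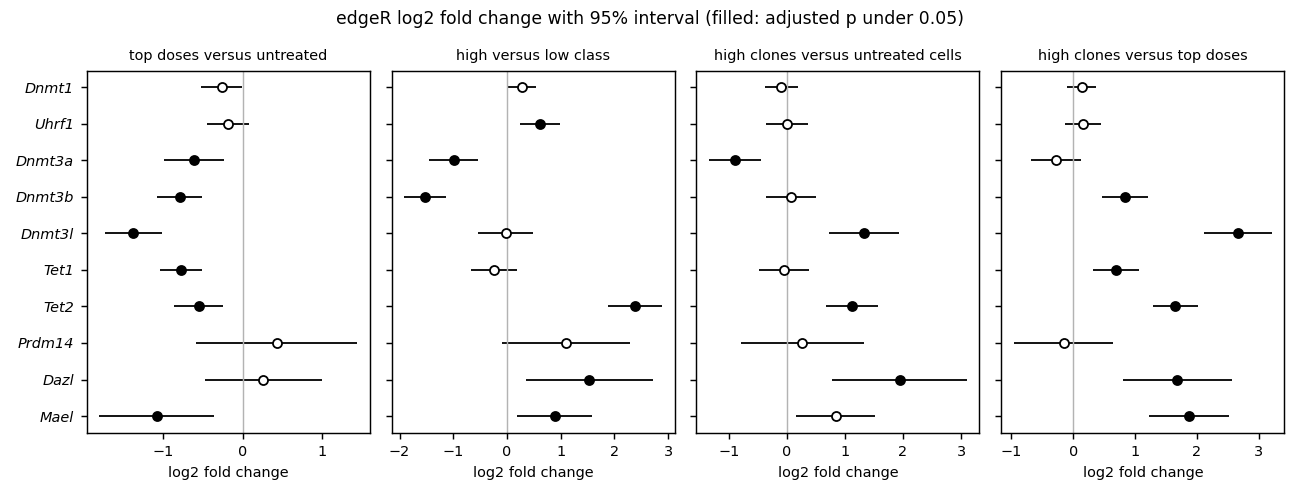
Log2 differences of the 10 genes with 95% confidence intervals in 4 comparisons, filled where the adjusted p was under 0.05 in edgeR. *Dnmt3l* and *Tet2* are on the lower side with CHIR99021 and on the higher side in high clones against untreated cells, while *Dnmt3a* is on the lower side in both.

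Among the clones, the levels of some of the 10 genes varied together. Over 15 clones, *Tet2* and *Dnmt3a* had a Pearson r of −0.89 of log2 (CPM + 1), and within the 9 high clones an r of −0.94, or −0.96 without the 2 clones farthest from the median. *Tet2* and *Dnmt3b* had −0.88 over 15 clones and −0.63 within the high class, or −0.49 there without the 2 farthest clones. *Dazl* and *Mael* had 0.89 over 15 clones, or 0.85 without the 2 farthest ones. Within the high class they had 0.84, but 0.20 without the 2 farthest clones, so that the relation within that class rests on those. *Tet2* and *Dazl* had 0.56 over 15 clones and 0.81 within the high class, or 0.65 there without the 2 farthest clones. The classes form clusters and the pairs share libraries and depth, so these values are descriptions.

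**Figure D4:**
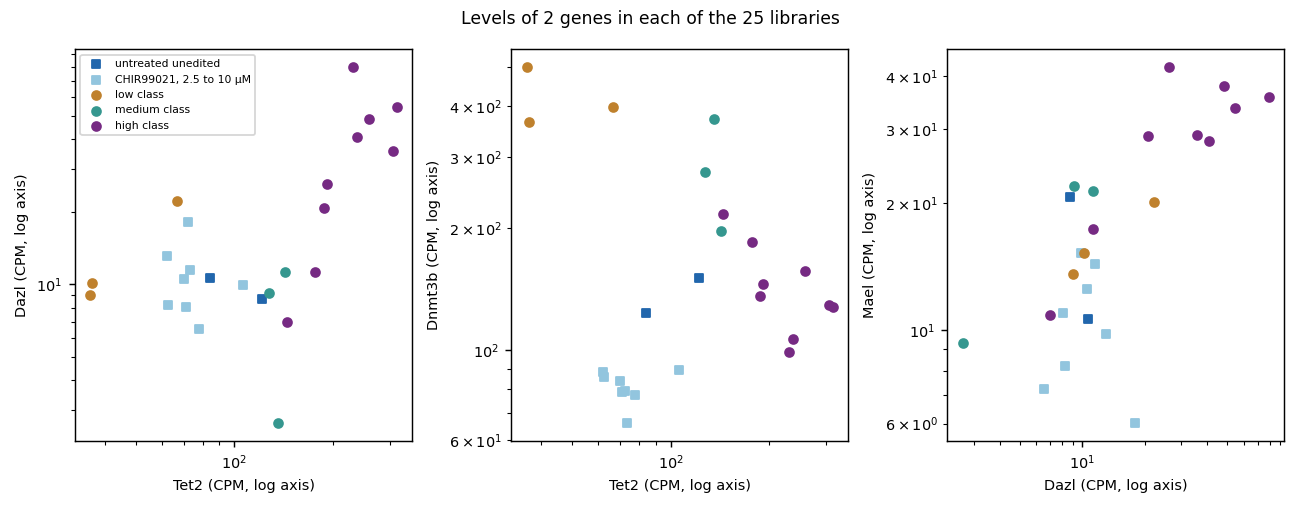
Levels of *Tet2* against *Dazl*, *Tet2* against *Dnmt3b* and *Dazl* against *Mael* (CPM on log axes) in the 25 libraries, 1 point each, coloured by class or treatment. High clones sit at 145 to 314 CPM of *Tet2* and 98.9 to 217 CPM of *Dnmt3b*, low clones at 36.2 to 66.6 and 366 to 499 CPM.

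The 3 genes most like a member were those with the highest Pearson r of log2 (CPM + 1) over the 15 clones, among 7090 others whose mean reached 20 CPM, and are given for the 7 members whose mean over the 25 libraries reached it. For *Tet2* these were *Tbx3* (r = 0.97), *Klf4* (0.96) and *Zfp57* (0.96), the first 2 transcription factors of naive ES cells and the third a factor that keeps methylation at imprinted regions. For *Dnmt3b* they were *Aprt* (0.97), *Cks1b* (0.96) and *Odc1* (0.95), for *Dnmt3a* *Trp53bp1*, *Pcbp4* and *Rsu1* (0.92 each) and for *Tet1* *Gdf3* (0.93), *Nfx1* (0.88) and *Enox1* (0.88). *Uhrf1* was most like *Mcm2* (0.91), *Mrps35* (0.91) and *Mut* (0.90), and *Dnmt1* most like *Cdt1* (0.91), *Abcc4* (0.91) and *Slc7a3* (0.90). MCM2 and CDT1 license DNA replication. The highest values for *Dnmt3l* were those of *Emg1* (0.80), *Me2* (0.78) and *Uqcrq* (0.75). These are descriptions over 15 clones that share their classes.

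In the list of 13 genes of maintenance and accessory factors, 6 were called over the dose series, 1 higher and 5 lower, with a median of −0.29, beside 12.5% of all genes. Without untreated replicate 1, 3 of them were called lower. The lowest adjusted p belonged to *Zfp57* (−1.44 ± 0.20, log2 over 10 µM, adjusted p = 7.56e-06), *Dppa3* (−1.39 ± 0.25), *Hells* (−0.66 ± 0.12) and *Trim28* (−0.46 ± 0.11). DPPA3 shields DNA from methylation, HELLS is a chromatin remodeller needed for it, and TRIM28 is the corepressor that binds ZFP57. Between the high and the low class, 4 of 13 were called, a share near the 29.8% of all genes, namely *Zfp57* (1.77 ± 0.23, adjusted p = 3.77e-06), *Lig1* (0.51 ± 0.10) and *Cdca7* (0.80 ± 0.17) higher and the H3K9 methyltransferase gene *Ehmt2* (−0.93 ± 0.21) lower. *Zfp57* was at 62.7 and 99.5 CPM in untreated cells, 29.4 to 42.5 at the top doses, 50.8 to 115 in the low and 165 to 297 CPM in the high class. The median of the list between classes was −0.03, beside 0.0071 over all genes.

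Of 13 genes of demethylation and base excision repair, 11 were tested, and 5 were called between the high and the low class, beside 29.8% of all genes. *Tet3*, the third TET gene, was lower in the high class (log2 difference −2.45 ± 0.36, adjusted p = 2.10e-05, edgeR), opposite to *Tet2*. It was at 1.60 to 8.89 CPM against 18.2 to 22.6 CPM in the low class, without overlap, beside 20.4% of all genes without overlap. *Tet3* could pass the filter through the low class alone and then had to differ, so its values are a description. *Gadd45g* was lower too (−3.08 ± 0.40, adjusted p = 5.00e-06). The filter limit given for *Tet3* may apply to *Gadd45g* as well, so its values between these classes are also a description. The repair genes *Parp1* (0.63 ± 0.11) and *Xrcc1* (0.49 ± 0.13) were higher. Over the dose series only *Gadd45b* (−0.57 ± 0.16) and *Gadd45g* (1.15 ± 0.36) of the 11 were called, beside 12.5% of all genes.

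Of 10 readers of methylated DNA, 9 were tested between the high and the low class and 3 were called lower. They were *Zbtb33* (−0.88 ± 0.29), *Zbtb38* (−0.70 ± 0.26) and *Mbd2* (−0.56 ± 0.21). Over the dose series *Mbd2* was the 1 gene called of 8, beside 12.5% of all genes, and was higher (0.68 ± 0.23). In every fit that left out 1 clone, at most 2 readers were called lower. Both the count of readers and that of the next list are near the 29.8% of all genes called between these classes. Of 11 genes of methionine and S-adenosylmethionine supply, 10 were tested. Over the dose series 0 were called (edgeR, 1 at an unadjusted p under 0.05), beside 12.5% of all genes. Between the high and the low class 3 were called. These were *Shmt2* (1.08 ± 0.18), *Shmt1* (0.65 ± 0.15) and *Ahcyl1* (−0.77 ± 0.15). *Mat2a*, which makes S-adenosylmethionine, the methyl donor, was 2.68 higher on the log2 scale in high clones than in untreated cells (adjusted p = 8.57e-08, 6 of 11 genes of the list called, 4 higher and 2 lower, beside 34.0% of all genes), at 173 to 457 CPM in the high class and 286 to 425 in the low class against 46.8 and 57.1 CPM. Of 9 Prdm14 partners, which include genes of the PRC2 complex, 8 were tested and 4 were higher in the high than in the low class, namely *Mtf2* (0.76 ± 0.16), *Eed* (0.55 ± 0.12), *Cbfa2t2* (0.71 ± 0.18) and *Ezh2* (0.47 ± 0.14), or 2 without T41S, beside 13.1% of all genes called higher. *Ezh2* was the 1 of 8 called over the dose series, beside 12.5% of all genes, and it was lower (−0.45 ± 0.12).

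Beside *Dazl* and *Mael*, 22 further germline genes known as targets of methylation were examined. Between the high and the low class 13 passed the filter, of which 10 were called, all higher, with a median of 1.73 (log2), beside 29.8% of all genes called and 13.1% called higher. A gene could pass the filter through 1 class alone and then had to differ, so the count describes these 13 genes and says nothing of the other 9. Without T41S, 2 of 14 were called, and 8 to 10 were called in each of the other 11 fits without 1 clone. *Stag3* (2.21 ± 0.35, adjusted p = 4.58e-05), *Sycp3* (1.36 ± 0.31), *Sohlh2* (2.82 ± 0.65) and *Tuba3a* (2.85 ± 0.72) had the lowest adjusted p. *Stag3* and *Sycp3* encode proteins of meiotic chromosomes. *Stag3* was at 8.47 to 15.1 CPM in the low class, 11.98 to 38.3 in the medium and 24.8 to 62.3 CPM in the high class. *Sycp3* was at 20.3 to 33.2, 39.9 to 67.2 and 32.7 to 87.5 CPM, but at 133 and 169 CPM in untreated cells, so that it was lower in high clones than there (−1.25 ± 0.22, adjusted p = 8.95e-05). Against untreated cells 5 of 15 germline genes tested were called in the high clones, a share near the 34.0% of all genes. *Sycp3* was lower and 4 were higher, among them *Tex19.1* (2.35 ± 0.38), *Fkbp6* (2.89 ± 0.85) and *Taf7l* (1.98 ± 0.67). The median of the 15 was 0.87. A gene could pass this filter through the high clones alone and then had to be higher, so the 4 higher calls are a description. Summed over the 22 genes, the high clones lay at 182 to 504 CPM, the low ones at 123 to 288 CPM, and the untreated libraries at 313 and 346 CPM. A large part of the untreated sums was *Sycp3* (133 and 169 CPM).

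Over the dose series 6 of the 22 germline genes were tested and 1 was called, *Sycp3*, which fell by 1.63 on the log2 scale (adjusted p = 2.99e-05), beside 12.5% of all genes. At the top doses 7 were tested and *Sycp3* (−1.45 ± 0.15) and *Tuba3a* (−2.68 ± 0.48) were called lower, beside 15.8% of all genes called. *Tuba3a* was at 13.8 and 16.3 CPM in untreated cells and 1.45 to 4.03 CPM at the top doses. It could pass the filter through the untreated libraries alone, and a gene kept only that way had to be lower elsewhere. Its call is therefore a description. The top-dose levels also lie below the 9.80 CPM that a count of 0 allows in the shallowest library at 10 µM. The 8 treated libraries summed to 165 to 239 CPM over the 22 genes, below both untreated libraries. *Sycp3*, at the levels given above, was a large part of the untreated sums. The lower sums thus do not describe the list as a whole. Of 7 repressors of germline genes, all tested, 0 were called over the dose series (edgeR, 3 at an unadjusted p under 0.05), beside 12.5% of all genes. Between the high and the low class 1 was called, *Kdm5c* (0.37 ± 0.13), beside 29.8% of all genes. Markers of the 2-cell-like state, in which some germline genes are also expressed, summed to 0 to 102 CPM in the high class, 5.65 to 18.2 in the low class and 1.63 to 4.25 CPM in untreated cells. Their part in the germline differences was not tested.

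Genes of primordial germ cell specification, a process in which methylation is erased, were counted as well. Of 6 listed, 5 were tested over the dose series and 4 were lower, beside 6.63% of all genes, namely *Dppa3* (−1.39 ± 0.25), *Dnd1* (−1.11 ± 0.25), *Tfap2c* (−0.90 ± 0.22) and *Prdm1* (−1.66 ± 0.41). Between the high and the low class 2 of 5 were called, beside 29.8% of all genes, *Kit* higher (1.82 ± 0.25) and *Tfap2c* lower (−1.10 ± 0.28). Of the 10 ES cell identity genes 7 were called over the dose series, beside 12.5% of all genes, 2 higher (*Klf4*, 0.77 ± 0.16, was the one with the lower p) and 5 lower (led by *Utf1*, −1.84 ± 0.18). Between the high and the low class 6 of 10 were called, all higher, beside 13.1% of all genes, led by *Tfcp2l1* (2.20 ± 0.18) and *Klf4* (1.95 ± 0.18). *Klf4* was thus higher in both experiments, whereas *Tet2* was lower with CHIR99021 and higher in high clones.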

How the data were processed

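Bulk 3′ RNA-seq with molecular identifiers (mcSCRB-seq) was analysed for 10 libraries of unedited E14 cells and 15 *Ctnnb1*-mutant clones. The deposited values are raw UMI counts per gene, for which the authors trimmed reads with Cutadapt, extracted identifiers with UMI-tools, removed rRNA reads with SortMeRNA, aligned to mm10 with RNA STAR, deduplicated with UMI-tools, filtered duplicates with Picard MarkDuplicates and counted with featureCounts 2.0.1. The annotation release and strandedness are not given in the sources used here, so overlapping antisense genes may share reads.

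Gene IDs were matched to GENCODE M21 (GRCm38), which held 48058 of 48440 IDs. Levels are CPM of total counts. Comparisons used edgeR 4.0.16 in R 4.3.3 (quasi-likelihood F-test, TMM factors, and genes kept by filterByExpr at a count of 10) with Benjamini-Hochberg adjustment over all genes tested and a threshold of 0.05. Dose trends used all 10 unedited libraries with dose as a number, class comparisons all 15 clones, and comparisons of clones with unedited cells all 25 libraries. DESeq2 1.42.0, RLE normalization, no filter, thinned counts, a replicate block, terms for mitochondrial share (split at 0.8%) and codon, and leaving out each library were alternatives. List counts without each library were added after the data were seen.

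The 10 genes and the lists of related genes were chosen with earlier results of these data known, and so no p-value was adjusted over a list alone. All 10 genes are named in every comparison of groups, except for single doses and within codons. Of each list, at most the 4 called genes with the smallest adjusted p are named. No replicate pair agreed within sampling noise. Replicates within a dose were 2 libraries, and Wilson intervals cover counting error only.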

Additional observations from a re-analysis of the deposited data

Results flagged for a closer look

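In 4 of the 10 genes the effect of CHIR99021 and that of the strong mutations, each against untreated cells, pointed in opposite directions, and the difference between high clones and top doses was itself called by edgeR. Of all 10674 genes tested in the 3 comparisons, 29.4% met the same description. Both effects share the 2 untreated libraries, and the clones differ from unedited cells also in editing, cloning and mitochondrial share, so that these cannot be told apart. The log2 difference between the 9 high clones and the 4 libraries at 7.5 and 10 µM was 2.66 for *Dnmt3l*, from −1.37 (CHIR99021) and 1.33 (clones) against untreated cells. It was 1.65 for *Tet2*, from −0.55 and 1.12. It was 0.83 for *Dnmt3b*, from −0.79 and 0.07, of which the latter was not called (adjusted p = 0.827) and turned negative in 2 fits that left out 1 library. It was 1.87 for *Mael*, from −1.08 and 0.84, of which the latter was not called (adjusted p = 0.0527). Among the 9 high clones, to which Dixon's test was applied, no library stood apart at the 95% level in the 10 genes.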

How the results depend on the processing

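Outside the fits that left out 1 library, 425 values of the 10 genes kept their direction and their side of the threshold under the alternatives, 39 lost the call, 14 gained one and 13 changed sign, none of these a called value. Of the counts of called genes, 81 stayed within 1.5 times and 21 did not. With 1 library left out at a time, the counts called were 1 to 6 of the 10 and 527 to 1325 of all genes over the dose series, 3 to 6 of the 10 and 681 to 1676 of all genes at the top doses and 4 to 7 of the 10 and 834 to 2703 of all genes among the mutations. They were 4 to 6 of the 10 and 1653 to 3184 of all genes between high and low, 0 to 4 of the 10 and 106 to 811 of all genes between high and medium and 1 to 3 of the 10 and 276 to 1433 of all genes between medium and low. They were 3 to 5 of the 10 and 1626 to 4109 of all genes between high clones and untreated cells, 2 to 5 of the 10 and 1998 to 3557 of all genes between low clones and untreated cells and 5 to 6 of the 10 and 3177 to 5531 of all genes between high clones and top doses. The counts were lowest without untreated replicate 1 over the dose series (1 of 10, 527 genes), without T41S among the mutations (834 genes) and without S45F clone D9 or S45P between high and medium (0 of 10 each by edgeR). A lone clone of a mutation is there assumed to vary like the others. Changes of sign in these fits touched uncalled values. Over the dose series, the range was −0.24 to 0.61 for *Dazl*. Between high clones and untreated cells, the range was −0.20 to 0.044 for *Dnmt1*, −0.043 to 0.22 for *Dnmt3b*, −0.19 to 0.14 for *Tet1* and −0.20 to 0.25 for *Uhrf1*. Between high and low, the range was −0.34 to 0.32 for *Dnmt3l*. Between high and medium, the range was −0.51 to 0.095 for *Dnmt3l* and −0.18 to 0.053 for *Uhrf1*. Between medium and low, the range was −0.11 to 0.59 for *Dnmt3l* and −0.042 to 0.57 for *Tet1*. Between low clones and untreated cells, the range was −0.39 to 0.54 for *Mael* and −0.072 to 0.54 for *Tet1*. Between high clones and top doses, the range was −0.30 to 0.54 for *Prdm14*. At the top doses, the range was −0.27 to 0.58 for *Prdm14* and −0.36 to 0.078 for *Uhrf1*.

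Counts thinned to the smallest library, which leaves fewer genes and less precision by construction, gave 1 of 10 and 288 genes over the dose series, 2 of 10 and 398 genes at the top doses, and 1170 genes among the mutations. Thinning gave 1888 genes between high and low, 226 between high and medium, and 1 of 10 and 585 between medium and low. It gave 1454 genes between high clones and untreated cells, 1683 for low clones and 2705 between high clones and top doses. Signs changed under thinning for *Uhrf1* at the top doses (0.025) and between high clones and untreated cells (0.13), for *Mael* between low clones and untreated cells (0.46) and for *Dnmt1* between high clones and top doses (−0.0034). DESeq2 gave 3 of 10 and 608 genes at the top doses and 654 genes among the mutations, and over the dose series it lost *Dnmt3a* (adjusted p = 0.116) and *Mael* (0.0733). The cause was not tested. Without a filter on low counts, 3581 genes were called among the mutations, 739 between high and medium, and 5 of 10 between medium and low, and the signs of *Dnmt3l* between high and low (0.030) and *Uhrf1* between high clones and untreated cells (0.0023) changed. With RLE normalization *Dnmt3a* had an adjusted p of 0.0501 over the dose series. Codon as a further term, which equals the comparison within codon 41, gave *Dnmt3l* 0.16 and *Tet1* 0.15. Within codon 45, 0 of 10 and 9 genes were called, with *Dnmt3l* at −0.25 and *Tet1* at −0.025. A term for the mitochondrial share added *Dnmt1* (−0.33, adjusted p = 0.0202) and *Uhrf1* (−0.29, 0.0220) at the top doses and lost *Dnmt3a* over the dose series (0.0664), where *Uhrf1* was added (−0.36, 0.0489).

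Libraries with the same replicate number did not deviate together throughout. Correlations ran from −0.21 to 0.17 over 10 pairs of doses and from −0.16 to 0.12 over 6 pairs of mutations. The numbers were thus not taken to pair libraries. However, 2.5, 5 and 10 µM deviated weakly together (0.14 to 0.17) and against 0 µM (−0.21 to −0.17). The lower mitochondrial share was in replicate 1 at 2.5, 5 and 10 µM, in replicate 2 at 0 µM and in neither at 7.5 µM. Its part in these correlations was not tested. With a replicate block, 5 of 10 and 1140 genes were called over the dose series, 5 of 10 at the top doses, 5 of 10 among the mutations, 6 of 10 between high and low and 1 of 10 between medium and low. *Uhrf1* between high clones and untreated cells changed sign (0.0019).

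Depth limits *Prdm14* (207 counts over 25 libraries), *Dazl* (676) and *Mael* (659) in particular, and the shallowest library, at 10 µM, held 306157 counts.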
